A study of Saccharomyces cerevisiae with 79 samples.

Results

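The introns described here interrupt 50 genes for proteins of the large ribosomal subunit of budding yeast, out of 308 introns that were targeted in all. They were found in the deposited tables by gene identifier and fall into 23 pairs of duplicated genes, an A and a B copy each, and the 4 single-copy genes RPL25, RPL28, RPL32 and RPL39. The genes RPL7A, RPL7B, RPL22A, RPL22B and RPL30 were left out of the list. All 50 passed the read minimums for unspliced reads in every comparison.

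Most large subunit proteins of this yeast are encoded by duplicated genes whose protein products are nearly the same, while the introns of the copies have diverged. Splicing removes an intron in 2 chemical steps: the branch point adenosine first attacks the 5′ splice site, which leaves the lariat intermediate, and the 3′ splice site is cut afterwards as the exons are joined. Ribosomal protein transcripts are among the most abundant substrates of the spliceosome in growing yeast. They carry most of the long introns of a genome whose introns are otherwise few and short.

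RNA was labelled in culture with 4-thiouracil, a uracil analogue taken up into newly made RNA, and was pulled down with streptavidin after biotinylation. Libraries were made by MPE-seq, multiplexed primer extension sequencing, whose reverse transcription primers each lie downstream of a chosen intron. The prp2-1 strain has a mutant PRP2 gene, whose product is a DEAH-box ATPase needed for the spliceosome to carry out its first step; 1 time course from 120 to 1320 s and 2 libraries at 0 s are used. WT_30, labelled as the strain BY4741, has 2 time courses from 90 to 3600 s with total labelled Schizosaccharomyces pombe RNA as a spike-in, and WT, also BY4741, has 3 time courses from 90 to 990 s with spike-in RNAs transcribed in vitro, as prp2-1 has. Both WT_30 and WT also have a 0 s library in each course. The labels give no growth temperature for any of the 3 and do not say what else sets WT_30 apart, nor that the courses came from separate cultures, so that p-values measure the spread between courses, which may be technical.

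The tables hold, for each intron, the number of reads in all and of unspliced ones. Subsets of the unspliced ones are the reads of the lariat intermediate and the reads whose end falls after the branch point but before the 3′ splice site, whose chemical step cannot be told from the read end. The last class is called branch-to-3′ reads below. It is given for prp2-1 and WT here, as is the lariat class. The unspliced share is unspliced reads over all reads of a target, and the lariat share and the branch-to-3′ share are shares of the unspliced reads. Since each target has its own primer, all reads of different targets were not compared with each other.

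Of the 50 introns, 47 have 1 annotated intron in the RefSeq R64 annotation, and RPL24A, RPL24B and RPL32 have none there, so no sequence is shown for these. All 47 lie within the coding sequence, with a median length of 414 nt against 147 nt over 259 targeted genes with 1 annotated intron, and ran from 147 nt in RPL2A to 561 nt in RPL27A. On the coding strand, 39 of the 47 begin with GTATGT, against 187 of 259, and 46 hold TACTAAC, against 215 of 259. For TACTAAC, RPL19A is the exception among the 47. The distance from the last A of TACTAAC to the end of the intron ran from 20 to 79 nt, with a median of 37 nt. Introns ended in TAG in 25 and in CAG in 22.

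The sequences below are the 3′ ends of introns of paralogs that differ in the results that follow, of RPL18B, which had the highest unspliced share, and of the single copy RPL28, from shortly before the branch site to the last base. They are read 5′ to 3′ from the R64 genome, with TACTAAC and the last 3 bases in capitals.
RPL18B: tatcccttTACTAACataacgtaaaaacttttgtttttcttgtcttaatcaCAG
RPL13A: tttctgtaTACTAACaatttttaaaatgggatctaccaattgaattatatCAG
RPL13B: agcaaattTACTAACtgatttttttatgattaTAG
RPL33A: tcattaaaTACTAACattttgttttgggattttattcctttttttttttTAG
RPL33B: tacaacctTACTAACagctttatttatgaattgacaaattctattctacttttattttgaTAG
RPL6A: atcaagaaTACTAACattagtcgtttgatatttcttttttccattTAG
RPL6B: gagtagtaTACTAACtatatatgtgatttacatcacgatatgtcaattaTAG
RPL28: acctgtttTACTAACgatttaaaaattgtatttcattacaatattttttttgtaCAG

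RPL18B (YNL301C) has its intron at chrXIV:64019-64450 on the minus strand, and the branch A lies 40 nt from its end. In the RPL13 pair the distance is 39 nt in RPL13A (YDL082W, chrIV:308428-308792, plus strand) and 21 nt in RPL13B (YMR142C, chrXIII:550802-551203, minus strand). It is 38 nt in RPL33A (YPL143W, chrXVI:282141-282665, plus strand) and 49 nt in RPL33B (YOR234C, chrXV:778860-779386, minus strand). It is 34 nt in RPL6A (YML073C, chrXIII:123743-124157, minus strand), 38 nt in RPL6B (YLR448W, chrXII:1028869-1029252, plus strand) and 43 nt in RPL28 (YGL103W, chrVII:311016-311526, plus strand). The stretch after TACTAAC is 43.6% T in RPL18B.

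Labelled libraries held 388817 to 4440617 reads in prp2-1, 4155116 to 11674413 in WT_30 and 935805 to 8130197 in WT. The 50 introns took 24.4% to 33.2% of them in prp2-1, 32.1% to 40.4% in WT_30 and 37.1% to 44.1% in WT. In WT course 1 the libraries at 390 and 540 s stood apart, with a median branch-to-3′ share over the 50 introns of 44.0% and 60.9%, against 7.69% to 38.7% in the other 25 labelled WT libraries. The WT course 2 library at 300 s had a median of 38.5 unspliced reads per intron. Without the 390 and 540 s libraries, the course 1 value over 150 to 990 s moved by over 1.5 times in 0 of 50 introns for the unspliced share, 2 for the lariat share and 6 for the branch-to-3′ share, and the late value of the unspliced share in 15. Course 1 values without them are given below for RPL18B, RPL36A and RPL17A.

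Summed over 150 to 990 s in WT, the large subunit introns were spliced in most of their labelled reads. The median unspliced share over the 50 was 1.53%, against 1.72% over 40 small subunit introns and 7.37% over 282 introns measured. In 31 of the 50 the share was under 2%, and in 6 it was over 10%. The highest was that of RPL18B, at 85.9%, 43.0% and 36.9% in WT courses 1 to 3, of which course 1 stood apart and had 70.0% without its 390 and 540 s libraries. RPL28, also known as CYH2 after the cycloheximide resistance of its mutants, had 12.5%, 16.1% and 18.9%, and its unspliced RNA is a classic substrate of nonsense-mediated decay.

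RPL33A had 13.8% ± 5.03 and RPL2A, whose protein lies near the peptidyl transferase centre, had 13.2% ± 2.93 (SD, n = 3). RPL18B lay above all others in every course, whereas the course values of RPL28, RPL33A and RPL2A overlapped each other. This order depends on the branch-to-3′ reads. Without them RPL18B had 11.0%, 14.7% and 10.7%, and in course 3 lay below RPL33A (14.5%) and RPL2A (12.7%). RPL28 then had 5.45% ± 0.640 and RPL32 3.25% ± 0.0491 (SD, n = 3). With all unspliced reads counted, the lowest shares were those of RPL6B, at 0.277% ± 0.0467, RPL13A, at 0.424% ± 0.0694, and RPL16A, at 0.429% ± 0.0229. RPL27B had 0.503% ± 0.186 and RPL31A 0.546% ± 0.220, and these last 4 overlapped in their courses. Of the single copies, RPL32 had 6.36%, 8.62% and 18.3%, which placed it at rank 6 of the 50. RPL25 and RPL39, whose proteins sit at the end of the tunnel through which the nascent chain leaves, had 1.04% ± 0.183 and 0.882% ± 0.167 (SD, n = 3).

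The make-up of the unspliced reads also differed widely between the introns. The lariat share ran from 0.768% in RPL28 to 86.2% in RPL33B, with a median of 19.5%, against 26.0% in small subunit introns and 15.1% over 287 introns. It was over 50% in 13 introns. Highest after RPL33B (86.2% ± 2.99) were RPL13B (76.3% ± 2.08), RPL16B (70.7% ± 10.5), RPL40B (66.2% ± 4.07) and RPL35B (64.2% ± 2.10), all B copies (SD, n = 3). Next and close to RPL35B was an A copy, RPL33A (63.7% ± 2.29). RPL40B encodes ubiquitin fused to a ribosomal protein. Lowest were RPL28 (0.768% ± 0.0254), RPL18B (1.14% ± 0.918), RPL6B (1.32% ± 1.03), RPL36A (1.61% ± 0.690) and RPL24B (1.74% ± 0.711).

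The branch-to-3′ share had a median of 22.5%, against 15.8% in small subunit introns and 12.2% over all introns. It was 98.0%, 77.2% and 79.4% in RPL18B in WT courses 1 to 3, the highest mean of the 50. RPL36A followed with 73.1% ± 4.24, RPL24B with 72.4% ± 12.4, RPL28 with 68.3% ± 8.19 and RPL32 with 66.7% ± 17.2. The lowest were RPL13B (1.31% ± 0.665), RPL16B (2.77% ± 0.384), RPL27B (3.10% ± 1.59), RPL2B (4.06% ± 1.03) and RPL33B (4.62% ± 1.24; SD, n = 3). Of the 5 introns with the highest branch-to-3′ share, RPL32 alone had a lariat share over 2%, at 10.1% ± 5.17. The other single copies had 14.1% ± 4.51 in RPL25 and 19.98% ± 6.22 in RPL39, with lariat shares of 15.9% ± 3.06 and 35.9% ± 3.25.

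**Figure D1:**
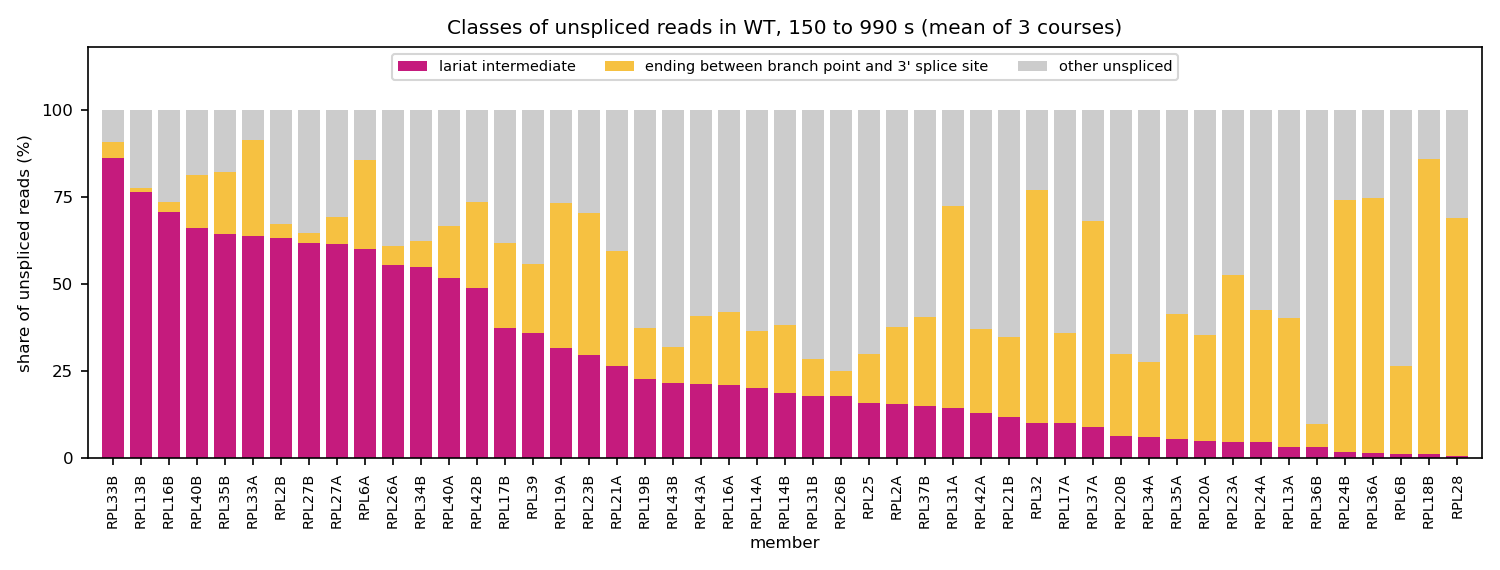
Stacked bars give, for 49 of the 50 introns, the share of unspliced WT reads (%, y axis) of the lariat intermediate, of branch-to-3′ reads, and of the other unspliced reads, as means of 3 courses summed over 150 to 990 s, ordered by lariat share. RPL33B, with 86.2% lariat reads, stands at the left end and RPL28, with 0.768%, at the right end, where RPL18B has 84.8% branch-to-3′ reads.

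Across the 50 introns the lariat share and the branch-to-3′ share ran against each other (Spearman's rho = -0.652, across introns, both shares of the same unspliced reads, and given as a description). The unspliced share had rho = 0.0918 with the lariat share and 0.0949 with the branch-to-3′ share. Over the introns with a sequence, intron length had rho = 0.394 with the unspliced share (n = 47). The distance from branch A to 3′ end had rho = 0.381 with the branch-to-3′ share and -0.160 with the lariat share (n = 46). Branch-to-3′ reads end within this distance, so a longer one leaves more room for them by construction. The 12 introns whose branch A lies 30 nt or less from the end had a median branch-to-3′ share of 6.91%, but their range, 1.31% to 73.1%, covered that of the 18 introns with over 40 nt (median 22.2%, range 4.62% to 68.3%).

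The copies of a pair were compared by the log2 ratio of unspliced to spliced reads, A less B, in each WT course. A pair was called apart where the copies' courses did not overlap and the mean difference was at least 1 on the log2 scale. By this rule 12 of 23 pairs stood apart, of which 6 had more unspliced reads in the A copy and 6 in the B copy. The same rule called 50% of the 18 small subunit pairs apart, 9 in all. The median size of the difference was 1.04 in large and 1.08 in small subunit pairs. Every pair called apart had an exact two-sided permutation p of 0.1, which is the smallest that 3 courses against 3 allow. Both copies were read in the same 3 courses. The overlap rule and the permutation test took their values as unpaired, so this p does not use the pairing.

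In the RPL6 pair the shares were 2.02%, 2.17% and 2.59% in RPL6A against 0.331%, 0.245% and 0.256% in RPL6B. The A copy lay above the B copy by 3.06 ± 0.382 on the log2 scale (SD over courses, n = 3) and by 3.05 without the branch-to-3′ reads. RPL27A had 3.28%, 3.21% and 4.75% against 0.371%, 0.423% and 0.717% in RPL27B, a difference of 2.98. RPL42A had 4.65%, 3.67% and 4.64% against 0.686%, 0.616% and 0.601% in RPL42B, a difference of 2.82. In all 3 pairs the A copy was higher, and its lowest course lay far above the highest course of the B copy. The first 50 coding bases after the intron have 1 mismatch between the RPL42 copies, so their reads may have been assigned to each other, which was not tested; the same limit holds for RPL18B.

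RPL36A had 3.76% ± 1.06 and RPL36B 0.586% ± 0.0398 (SD, n = 3), a difference of 2.68 that was 0.88 without the branch-to-3′ reads. The B copy was higher in RPL24, whose protein forms a bridge to the small subunit, with 1.24%, 1.17% and 1.52% in RPL24A against 6.33%, 4.73% and 11.6% in RPL24B. This difference of -2.52 was -1.26 without the branch-to-3′ reads. RPL31A had 0.385%, 0.456% and 0.798% against 2.11%, 2.54% and 3.25% in RPL31B, a difference of -2.34 that became -3.45 without these reads. RPL23A had 4.20% ± 0.617 and RPL23B 1.07% ± 0.346, a difference of 2.05. The closest pairs were RPL20 (0.568% ± 0.0369 and 0.548% ± 0.0738), RPL35 (1.47% ± 0.136 and 1.60% ± 0.543) and RPL26 (1.26% ± 0.192 and 1.06% ± 0.224), whose courses overlapped between A and B.

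**Figure D2:**
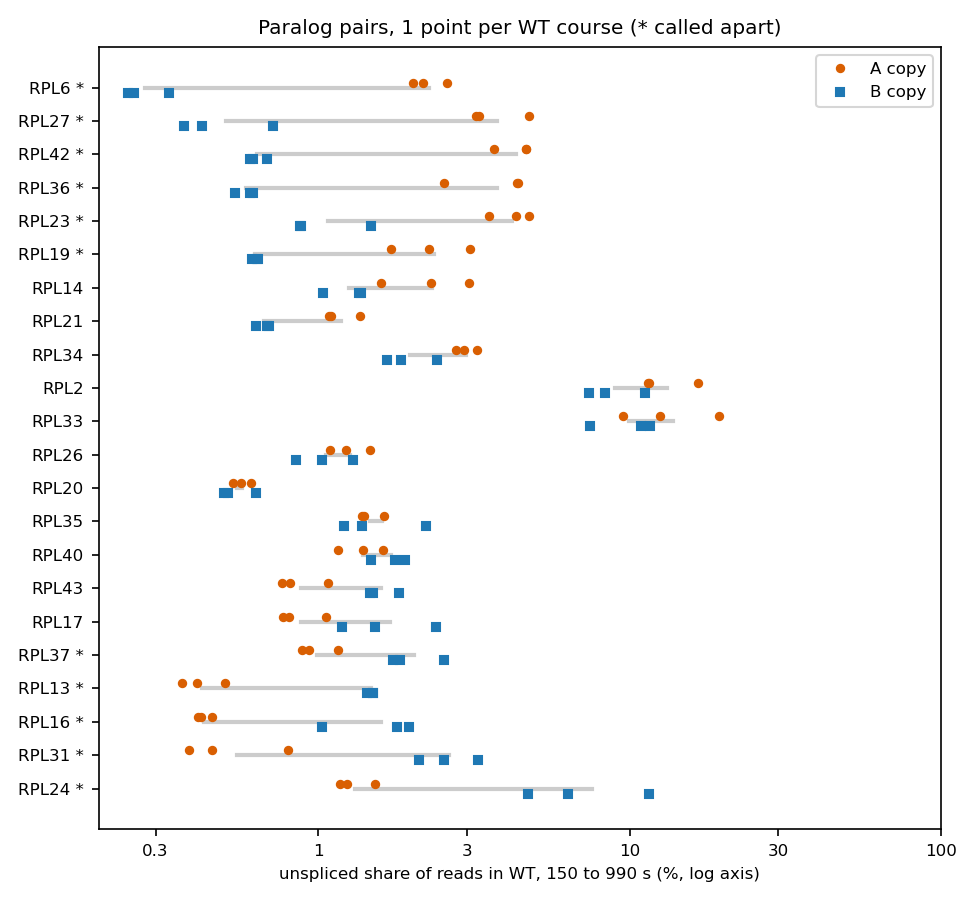
Each point is the unspliced share of 1 copy in 1 WT course, summed over 150 to 990 s (%, log x axis), for 22 of the 23 pairs, with A copies as circles, B copies as squares, and a grey line between the means. Stars mark the 11 of them called apart; RPL6A, RPL27A, RPL42A and RPL36A lie to the right of their B copies, and RPL24B and RPL31B to the right of their A copies.

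The lariat share separated 15 of 23 pairs, with the A copy higher in 5 and the B copy in 10. It separated 72.2% of the small subunit pairs (13 of 18, of which 8 had the A copy higher). RPL6A had 49.7%, 67.6% and 62.7% lariat reads against 0.515%, 0.969% and 2.48% in RPL6B. RPL13A had 2.72%, 3.54% and 3.31% against 73.9%, 77.3% and 77.7% in RPL13B. The copies did not overlap in either pair, and the log2 differences of the ratio of lariat to other unspliced reads were 6.98 and -6.53.

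RPL35A and RPL35B, close in unspliced share, had 5.46% ± 1.203 and 64.2% ± 2.10 lariat reads (SD, n = 3), a difference of -4.98. RPL34A and RPL34B had 6.09% ± 1.32 and 55.0% ± 6.11, a difference of -4.25. The first 50 bases after the intron have 2 mismatches between the RPL35 copies and 1 between the RPL34 copies.

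The branch-to-3′ share separated 14 pairs, with the A copy higher in 12 and the B copy in 2, against 88.9% of the small subunit pairs (16 of 18, of which 6 had the A copy higher). RPL13A had 37.2% ± 3.70 against 1.31% ± 0.665 in RPL13B, and RPL36A had 73.1% ± 4.24 against 6.70% ± 3.495 in RPL36B (SD, n = 3), differences of 5.58 and 5.36. RPL31A had 57.7% ± 11.4 against 10.6% ± 4.60, a difference of 3.64, and RPL16A had 20.9% ± 4.40 against 2.77% ± 0.384, a difference of 3.19. The B copy was the higher in RPL24, with 38.0% ± 1.98 in RPL24A and 72.4% ± 12.4 in RPL24B.

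The first question of the time courses was whether the unspliced share falls as labelling goes on. In prp2-1 the median over the 50 introns was 4.14%, 2.47%, 1.499% and 0.858% at 120, 150, 210 and 300 s, and after 0.767%, 0.904%, 0.651% and 0.543% it reached 0.297% at 1320 s. In WT_30 the medians at 90, 120, 150, 300, 480 and 3600 s were 6.39%, 6.54%, 5.69%, 4.85%, 3.02% and 0.885%, with 26 introns highest at 90 s, 12 at 120 s and 12 later. In WT they were 3.27%, 6.18%, 3.84%, 2.32% and 1.302% at 90, 120, 150, 210 and 300 s. Later they were 1.91%, 1.26%, 0.747% and 0.503% at 390, 540, 720 and 990 s (means of 3 courses), and before label 0.278%. The WT share was higher at 120 than at 90 s in every course for 37 introns and lower in every course for none, and 46 of 50 had their highest mean at 120 s. Such counts were not made over all introns. The median over all introns was 17.6% at 90 s and 20.8% at 120 s in WT, and 16.1% and 14.9% in WT_30. In small subunit introns it was 3.53% and 6.40% in WT, and 5.90% and 5.94% in WT_30.

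**Figure D3:**
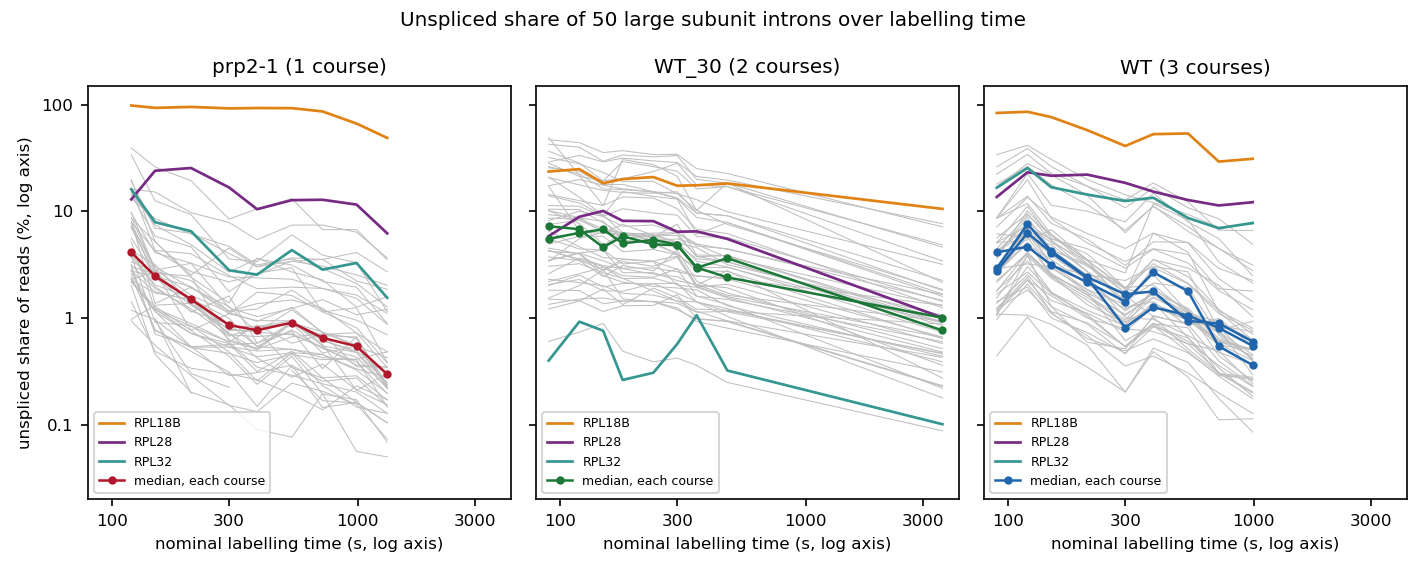
Grey lines give the unspliced share (%, log y axis) of each of the 50 introns against nominal labelling time (s, log x axis) in prp2-1, WT_30 and WT, averaged over the courses of each, with RPL18B, RPL28 and RPL32 in colour and the median of each course as dots; shares of 0 are not drawn. The median falls in all 3, to 0.297% at 1320 s in prp2-1, 0.885% at 3600 s in WT_30 and 0.503% at 990 s in WT, and RPL32 lies near the top in WT and near the bottom in WT_30.

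Setting 540, 720 and 990 s against 150, 210 and 300 s in WT, the unspliced share fell in 48 of 50 large subunit introns and rose in none. The background was high, since 90.9% of the 275 introns tested were lower late (edgeR's quasi-likelihood test, Benjamini-Hochberg adjusted p under 0.05). The median log2 change was -1.69 in the 50, -1.67 in 40 small subunit introns and -1.52 over all introns. Relative to the typical intron, by TMM scaling of unspliced and spliced reads each, 4 of the 50 fell and 1 rose, where 6.18% of all introns fell and 14.2% rose.

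RPL39 fell furthest, to 0.241%, 0.249% and 0.392% late against 1.71%, 1.62% and 1.40% early, a log2 change of -2.47 ± 0.292 (SE, edgeR adjusted p = 1.36e-05). RPL17B, which like RPL39 encodes a protein of the exit tunnel, had 0.752% ± 0.293 late and 4.09% ± 2.34 early (SD, n = 3), a change of -2.42. RPL40B, RPL14B and RPL35A fell by 2.34, 2.33 and 2.31 on the log2 scale, and RPL25 by 2.12. Late and early courses did not overlap in any of these 6.

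The falls were smaller in the other single copies. RPL28 had 9.10%, 14.3% and 13.0% late against 17.1%, 18.1% and 28.2% early, a change of -0.95 ± 0.326 (edgeR adjusted p = 0.0137), and RPL32 had 3.65%, 7.11% and 11.2% against 8.18%, 11.1% and 24.7%, a change of -1.09 ± 0.491 (edgeR adjusted p = 0.0472) with overlapping courses. Relative to the typical intron both changed sign, to 0.57 and 0.42. The 2 introns that did not pass, named here after their values were seen, were RPL18B and RPL36A. RPL18B had 85.9%, 34.4% and 26.8% late against 81.9%, 58.0% and 53.7% early, lower late in 2 of 3 courses; without the 540 s library course 1 had 33.2% late, and RPL18B was lower late in 3 of 3. RPL36A had 2.59%, 2.44% and 3.12% late against 4.77%, 2.59% and 5.01% early, and 1.34% late in course 1 without that library. With the course as a block both passed, as all 50 introns then did, where 93.1% of all introns fell. All 50 passed also without the 390 and 540 s libraries of course 1, where again 90.9% of all introns fell.

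In WT_30, 300, 360 and 480 s were set against 90, 120 and 150 s, and 37 of 50 introns fell and none rose, where 65.6% of 282 introns fell. The median log2 change was -0.79, against -0.89 in small subunit introns and -0.73 over all introns. RPL43B had 3.26% and 1.78% late against 7.997% and 7.18% early, a change of -1.73 ± 0.309 (edgeR adjusted p = 0.00428). RPL23B, RPL27A and RPL33B fell by 1.63, 1.49 and 1.47, in both courses without overlap. RPL25 fell by 1.15 and RPL39 by 0.94, while RPL28 (4.76% and 7.74% late, 6.89% and 9.01% early) and RPL32 (1.00% and 0.285% late, 0.487% and 0.924% early) overlapped and did not pass. RPL18B had 15.2% and 20.7% late against 19.4% and 25.6% early and did not pass either. The other 10 that did not pass were RPL6B, RPL17A, RPL21B, RPL26A, RPL34A, RPL34B, RPL36B, RPL37A, RPL37B and RPL43A. Relative to the typical intron none of the 50 changed by edgeR (13 at an unadjusted p under 0.05).

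RPL18B carried many unspliced reads before label was added. At 0 s its unspliced share was 95.95% and 94.96% in prp2-1, 10.5% and 4.62% in WT_30, and 98.96%, 87.1% and 85.2% in WT. The branch-to-3′ reads made up 99.9%, 99.3% and 99.9% of the unspliced reads in the WT libraries at 0 s. The WT_30 libraries at 0 s lay far below those of prp2-1 and WT. In prp2-1 the share then was 98.4% at 120 s and 48.9% at 1320 s. In WT it was 96.0%, 93.0% and 62.3% at 90 s, and 29.3%, 39.0% and 25.1% at 990 s. In WT course 1 the values at 300, 390, 540 and 720 s were 64.2%, 90.6%, 93.9% and 37.3%, so the libraries that stood apart in branch-to-3′ share also hold the second peak of RPL18B; whether unlabelled RNA contributes was not tested.

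Within the unspliced reads, little changed with time by the fits without pairing. The lariat share, late against early in WT, passed in 0 of 48 introns tested by edgeR (0.0% of 248 introns), and DESeq2 called 1. At an unadjusted edgeR p under 0.05 there were 8 of the 48, where 39 of 248 introns were. With the course as a block 8 fell and none rose, where 10.5% of all introns fell. The branch-to-3′ share likewise passed in 0 of 50 by edgeR (0.0% of 243), and in none by DESeq2. At an unadjusted edgeR p under 0.05 there were 14 of the 50, where 59 of 243 introns were. The branch-to-3′ share was higher late in 46 of 50, by a median of 0.87 on the log2 scale. Over all introns it was higher in 223 of 243, by a median of 0.79. Relative to the typical intron it was higher late in 32 of the 50 and lower in 18, by a median of 0.18, against 0.10 over all introns. With the course as a block 33 rose, where 56.8% of all introns rose.

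RPL32 gave the largest such difference, with branch-to-3′ shares of 74.6%, 83.9% and 91.1% late against 38.2%, 45.1% and 81.9% early, higher late in 3 of 3 courses (2.09 ± 0.675 on the log2 scale, edgeR adjusted p = 0.141). RPL28 had 70.9%, 76.5% and 81.5% late against 54.7%, 49.7% and 77.3% early. Without the 390 and 540 s libraries of course 1 the median was 0.53.

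The comparison of prp2-1 with WT asks how the introns fare with the altered Prp2. The prp2-1 course was summed over 150 to 990 s and set against 3 WT courses. With 1 course its spread was taken to equal that between WT courses. Sums weigh deep libraries more. Libraries at 150 and 990 s held 530372 and 3578309 reads in prp2-1. In WT courses 1 to 3 they held 4149295, 4662896 and 5459382 at 150 s, and 8130197, 7736131 and 5163499 at 990 s. Late times, when most shares were lower, thus weigh more in the prp2-1 sum. The median over the 50 was 2.47% in prp2-1 and 3.84% in WT at 150 s. At 990 s it was 0.543% and 0.503%. The unspliced share was lower in prp2-1 in 21 of 50 introns and higher in 1, where 30.7% of 283 introns were lower and 2.12% higher. The median log2 change was -0.85 over the 50, -0.77 over small subunit introns and -0.62 over all introns. By TMM scaling, against the typical intron, 14 of the 50 fell and 2 rose, where 21.9% of all introns fell and 4.59% rose. The calls depended on single WT courses: 0 passed by edgeR without WT course 2 (19 at an unadjusted p under 0.05), where 1.41% of all introns passed. Without course 3, 9 fell, where 12.3% of all introns did, and without course 1, 15 fell, where 25.2% did. In the late window alone none fell and 2 rose, where 1.8% of all introns rose.

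RPL24B had 2.22% unspliced reads in prp2-1 (95% Wilson interval 2.11% to 2.35%, counting error only) against 6.33%, 4.73% and 11.6% in WT, a change of -1.74 ± 0.461 (SE, edgeR adjusted p = 0.0148). RPL2B had 3.15% in prp2-1 against 7.40%, 8.34% and 11.2% in WT, a change of -1.58. RPL33A had 4.90% against 9.54%, 12.5% and 19.3%, a change of -1.57. All 3 prp2-1 values lay below the lowest WT course. RPL13A had 0.144% against 0.408%, 0.364% and 0.5001% (-1.55), and RPL33B 3.73% against 7.45%, 10.9% and 11.6% (-1.49).

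Of the single copies, RPL32 fell to 3.88% in prp2-1, against 6.36%, 8.62% and 18.3% in WT, RPL39 to 0.352%, against 1.03%, 0.7001% and 0.919%, and RPL25 to 0.453%, against 1.24%, 0.881% and 0.998%. The other 13 introns that fell were RPL6A, RPL13B, RPL14A, RPL20A, RPL20B, RPL21A, RPL35A, RPL36B, RPL37B, RPL40B, RPL42A, RPL42B and RPL43A, with log2 changes from -1.44 to -0.85. RPL28 had 14.7% in prp2-1, within the WT courses (12.5%, 16.1% and 18.9%). The intron that rose was that of RPL18B, with 89.7% in prp2-1 (interval 89.4% to 90.0%) against 85.9%, 43.0% and 36.9% in WT, a change of 2.74 ± 0.913 (edgeR adjusted p = 0.0378). Without the branch-to-3′ reads RPL18B had 8.95% in prp2-1 and 11.0%, 14.7% and 10.7% in WT, a change of -0.48, while 34 of the 50 introns were then lower and 1 higher, where 42.5% of 280 introns were lower and 2.5% higher. DESeq2 did not call RPL18B (adjusted p = 0.201).

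The lariat share was lower in prp2-1 in 3 of 50 introns, where 3.45% of 261 were lower, and higher in 1, where 1.15% were higher. RPL16B had 24.0% lariat reads in prp2-1 (interval 21.5% to 26.7%) against 59.3%, 72.7% and 80.2% in WT, a change of -2.99 ± 0.528 (edgeR adjusted p = 0.00185). RPL34A had 1 lariat read among 484 unspliced reads in prp2-1, a share of 0.207% (interval 0.0365% to 1.16%), against 4.67%, 6.34% and 7.27% in WT. RPL18B had 0.0531% in prp2-1 against 0.118%, 1.40% and 1.90% in WT, where course 1 had 0.402% without its 390 and 540 s libraries. RPL32 was the intron that rose, with 30.4% in prp2-1 against 14.6%, 11.3% and 4.44% in WT, a change of 2.11 ± 0.598 (edgeR adjusted p = 0.0476). None of the 4 calls was made relative to the typical intron, with no filter on low counts or without WT course 3.

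The branch-to-3′ share rose in prp2-1 in 2 of 50 introns, where 3.08% of 260 rose. RPL18B had 98.9% in prp2-1 (interval 98.8% to 98.97%) against 98.0%, 77.2% and 79.4% in WT, a change of 3.51 ± 0.671 (edgeR adjusted p = 3.26e-05), above every WT course but close to course 1, which had 92.8% without its 390 and 540 s libraries. RPL17A had 67.2% (interval 61.3% to 72.5%) in prp2-1 against 41.0%, 15.1% and 21.5% in WT (23.9% in course 1 without its 390 and 540 s libraries), a change of 2.66 ± 0.805 (edgeR adjusted p = 0.0323). Neither call was made relative to the typical intron, and DESeq2 called RPL17A but not RPL18B. Leaving out WT course 2 or 3 ended both calls, and leaving out course 1 ended that of RPL17A. RPL32 moved the other way, with 34.7% in prp2-1 against 50.6%, 64.9% and 84.8% in WT, and did not pass (edgeR adjusted p = 0.0873).

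WT_30 and WT were compared over 90, 120, 150 and 300 s, the times they share, and use some of the same WT libraries as the comparison with prp2-1. The unspliced share was higher in WT_30 in 24 of 50 introns and lower in 11, where 37.7% of 284 introns were higher and 28.2% lower. The median log2 change was 0.71 in the 50, 0.43 in small subunit introns and 0.32 over all introns. By the same TMM scaling 23 rose and 12 fell, where 35.2% of all introns were higher and 35.2% lower. The changes were large in both directions, from -4.77 to 3.91. Apart from the series name, the sampling times and the spike-in kind, the labels give no difference between WT_30 and WT, so what separates them cannot be told apart from the way the libraries were made.

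RPL40B rose most, with 38.3% and 43.0% in WT_30 against 3.23%, 6.33% and 4.06% in WT, a change of 3.91 ± 0.320 (SE, edgeR adjusted p = 4.42e-09). RPL20A had 12.2% and 14.8% in WT_30 against 1.06%, 1.21% and 0.936% in WT, a change of 3.85. RPL25 had 18.8% and 21.0% against 2.48%, 3.06% and 1.94%, a change of 3.30. Each WT_30 course lay several-fold above each WT course in these introns. RPL19A and RPL19B, copies of a gene whose protein reaches over to the small subunit, rose together by 3.10 and 3.05, and RPL39 rose by 0.84.

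RPL32 fell most, with 0.621% and 0.788% in WT_30 against 10.5%, 15.5% and 24.9% in WT, a change of -4.77 ± 0.367 (edgeR adjusted p = 2.46e-09). RPL18B had 17.7% and 23.7% in WT_30 against 89.4%, 83.2% and 60.4% in WT, a change of -3.97. RPL33A had 2.64% and 2.39% against 15.3%, 27.6% and 32.9%, a change of -3.65. RPL28 fell by 1.63, with 6.20% and 8.70% in WT_30 against 16.4%, 17.3% and 26.7% in WT. RPL32, RPL18B, RPL33A and RPL28 were all among the 6 introns with the highest unspliced share in WT over 150 to 990 s, and RPL2A, also among these, did not pass. That ranking and this comparison share the WT libraries at 150 and 300 s, so high WT values favour a fall by construction.

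Some paralogs moved apart between the series and others moved together. At the shared times the difference between the copies differed between the series by at least 1 on the log2 scale, with no overlap of courses, in 10 of 23 pairs and in 11 of 18 small subunit pairs. No permutation test was run for this comparison of 2 courses against 3, which could not give a small p. In 4 pairs, RPL6, RPL23, RPL26 and RPL33, the sign of the difference was opposite in every course of the series, as it was in 4 small subunit pairs. RPL33A had 2.64% and 2.39% in WT_30 and 15.3%, 27.6% and 32.9% in WT, whereas RPL33B had 23.4% and 24.3% in WT_30 and 12.4%, 20.5% and 21.8% in WT. RPL23A had 3.73% and 4.31% in WT_30 and 7.48%, 7.73% and 7.61% in WT, whereas RPL23B had 10.4% and 7.97% in WT_30 and 1.86%, 2.05% and 2.89% in WT. In both pairs the A copy was lower and the B copy higher in WT_30.

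RPL6A had 1.85% and 2.10% in WT_30 and 3.92%, 5.72% and 4.30% in WT. RPL6B had 2.10% and 2.28% in WT_30 and 0.541%, 0.481% and 0.436% in WT. RPL26A had 1.97% and 2.02% in WT_30 and 2.39%, 3.29% and 2.68% in WT, and RPL26B 4.93% and 5.07% in WT_30 and 1.59%, 2.81% and 2.36% in WT. Over 90 to 480 s of the WT_30 courses alone, 19 of 23 pairs stood apart. Of the small subunit pairs, 61.1% did (11 of 18). Of the 19, 10 were among the 12 apart in WT, counted without regard to direction. RPL23, apart in WT, had a difference of the opposite sign in WT_30. WT_30 has fewer courses than WT, which makes the rule of no overlap easier to meet, so the 19 cannot be set against the 12. At the shared times RPL31 kept its difference, with -2.46 in WT_30 and -2.23 in WT.

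**Figure D4:**
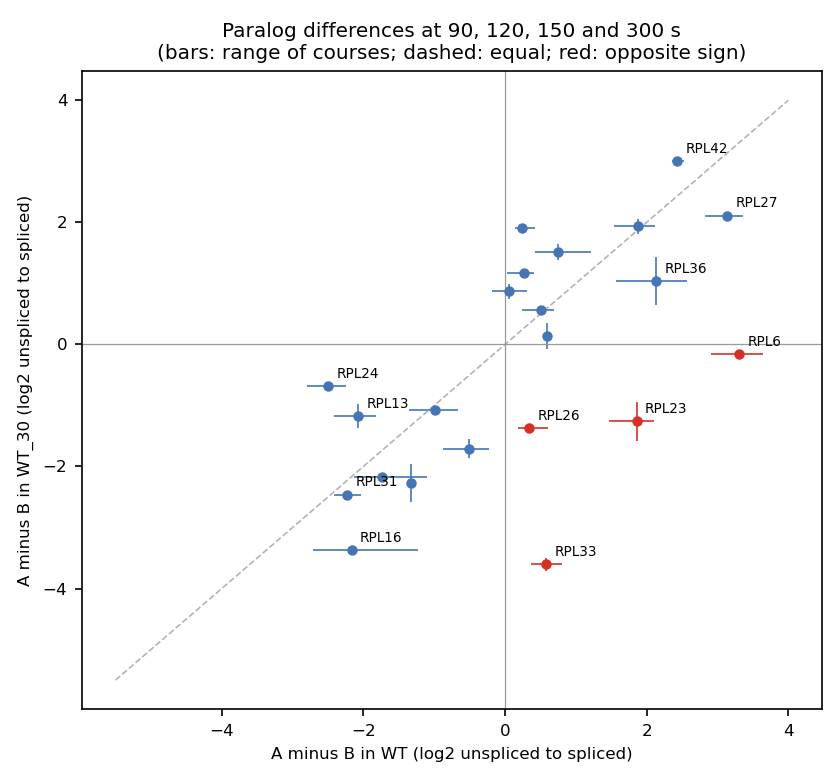
Each point is 1 of 22 paralog pairs, with the log2 ratio of unspliced to spliced reads of A less that of B in WT_30 (y axis, mean of 2 courses) against WT (x axis, mean of 3 courses), summed over 90, 120, 150 and 300 s, and with bars for the range of courses. The dashed line marks equal differences, and RPL6, RPL23, RPL26 and RPL33, in red, have opposite signs in every course.

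All reads of a target were compared as changes of its share of the library, scaled by TMM over all introns. Between late and early times in WT none of the 50 introns passed by edgeR (6 by DESeq2), where 8.73% of 275 introns did. At an unadjusted edgeR p under 0.05 there were 8 of the 50, where 89 of 275 introns were. With the course as a block 8 fell and 10 rose, against 25.1% and 22.5% of all introns. In prp2-1, 46 of 50 had fewer reads than in WT and none more, where 34.5% of 284 introns had fewer. The median change was -1.17 in the 50 and -0.98 in the small subunit introns, 31 of which, out of 40, had fewer. Scaled by library totals alone, the median of all introns moved to 0.57 and that of the 50 to -0.58, and 26 of the 50 had fewer, where 18.7% of all introns did.

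RPL31A took 0.0358% of the reads in prp2-1 against 0.0692%, 0.0858% and 0.0893% in WT, a change of -1.77 ± 0.237 (SE, edgeR adjusted p = 0.00261). RPL16A took 1.71% in prp2-1 against 3.49%, 3.73% and 3.99% in WT, and RPL6B 0.263% against 0.573%, 0.611% and 0.533%, changes of -1.71 each. RPL28 and RPL32 fell by 1.48 and 1.45, RPL25 by 1.07 and RPL39 by 0.67. The 4 introns that did not pass were RPL13A (0.53), RPL18B (0.07), RPL13B (-0.23) and RPL24B (-0.42), chosen here as the exceptions after their values were seen.

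In WT_30, 27 of 50 introns had fewer reads than in WT and 9 more, where 34.5% of 284 introns had fewer and 37.3% more. Scaled by library totals, 23 had fewer and 17 more, where 23.6% of all introns had fewer and 51.1% more, and the median of all introns moved to 0.59. RPL40A fell by 4.48, RPL25 by 3.89 and RPL40B by 3.84 on the log2 scale. RPL31A, RPL36A and RPL31B rose by 1.87, 1.71 and 1.70, and all 6 were called with no overlap of courses. RPL31A took 0.343% and 0.367% of reads in WT_30 against 0.0619%, 0.0694% and 0.0798% in WT.

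The changes of unspliced share between WT_30 and WT lay in the spliced reads of some introns and in the unspliced reads of others. Of the 27 introns with fewer reads in WT_30, 18 had a higher unspliced share and 3 a lower one. Of the 9 with more reads, 2 had a higher and 4 a lower share. Fewer spliced reads lower all reads and raise the unspliced share by construction, and these counts were not made over all introns. In counts scaled to the library total (CPM), RPL40B had 721 and 701 CPM of spliced reads in WT_30 against 11506, 10760 and 13329 in WT, while its unspliced reads, 447 and 528 CPM against 384, 727 and 564, overlapped. RPL25 had 371 and 391 CPM of spliced reads in WT_30 against 4217, 4420 and 6214 in WT, with unspliced reads of 85.8 and 104 against 107.3, 139.4 and 122.9. In both introns the spliced reads were lower in WT_30 by more than 3 on the log2 scale (-4.06 and -3.70), whereas the unspliced reads changed by -0.19 and -0.38.

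In RPL32 it was the unspliced reads that differed, at 55.3 and 55.8 CPM in WT_30 against 1056, 1673 and 3127 in WT, with spliced reads of 8848 and 7032 against 8967, 9103 and 9430. RPL33A had 63.5 and 71.2 CPM of unspliced reads in WT_30 against 372, 703 and 820 in WT, with 2342 and 2905 spliced reads against 2053, 1848 and 1676. RPL18B had both fewer unspliced reads, 484 and 529 CPM in WT_30 against 4140, 1471 and 674 in WT, and more spliced reads, 2252 and 1703 against 491, 298 and 442. Over the 50, spliced reads were higher in WT_30 in 22 introns and lower in 28, and unspliced reads were higher in 33 and lower in 17. These counts are on the scale of library totals, where the median of all introns in total reads was higher in WT_30. They too were not made over all introns.

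**Figure D5:**
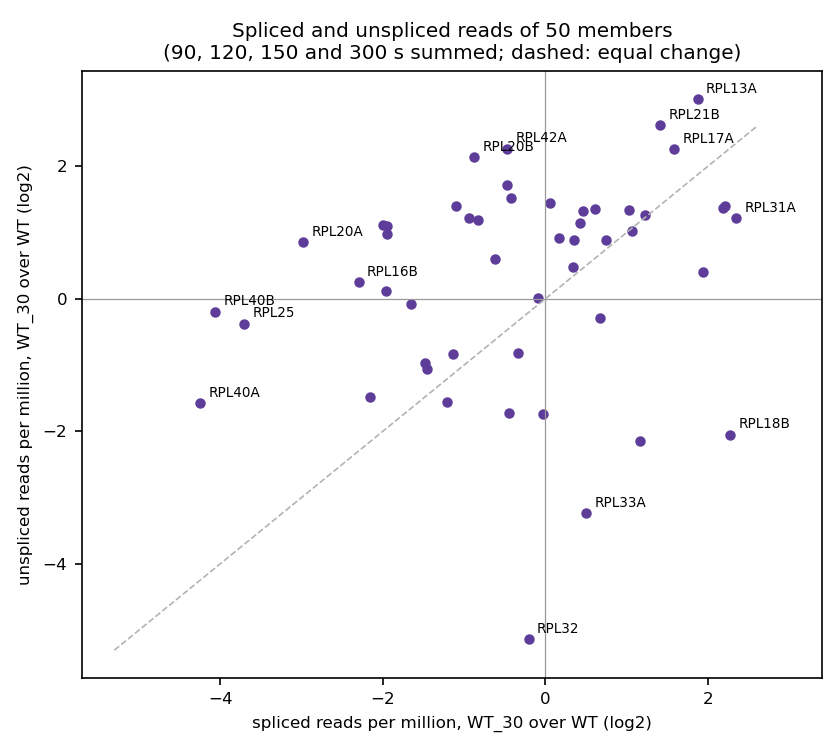
Each point is 1 of 50 introns, with the log2 change of unspliced reads in CPM (y axis) against that of spliced reads in CPM (x axis), WT_30 over WT, from means over courses of sums over 90, 120, 150 and 300 s; the dashed line marks equal changes. RPL40A, RPL40B and RPL25 lie far to the left, with fewer spliced reads in WT_30, and RPL32 and RPL33A far below 0, with fewer unspliced reads.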

How the data were processed

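Reads were aligned with STAR 2.7.2b to the R64 genome, per the submitters' processing notes; how reads were assigned to introns and read states is not given in the sources used here. The deposited tables hold raw read counts per intron, of which 10 of 23 tables were used, with 61 libraries; 72 columns, 18 in each of 4 prp2-1 tables, could not be tied to 1 sample and were left out, so that 11 of 29 prp2-1 libraries entered, and the fit planned for several prp2-1 courses has 1. Tables normalized by the authors were not used.

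Counts were summed per course over a window of times, so libraries with more reads weigh more, and the course was the replicate. For each share, edgeR 4.0.16 (R 4.3.3) fitted counts of both read states of every intron, with a term per course, a term for read state and their interaction with group as the test, and adjusted p-values by Benjamini-Hochberg over all introns, at 0.05. The fits kept introns that averaged at least 100 reads in all with 20 of them unspliced; for the other shares the minimum was 20 unspliced reads with 5 of the class in question. Fits were tested on simulated data. DESeq2 1.42.0 and limma 3.58.1 were alternatives, with other scalings, filters, windows and courses left out. The log2 ratios of paralogs used a pseudocount of 0.5, with exact unpaired permutation tests in scipy 1.17.1. Intervals are 95% Wilson intervals and cover counting error only, as PCR reads without molecular identifiers are not independent molecules. A total of 388817 to 11674413 reads per labelled library sets the depth.

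Late and early windows come from the same course and were treated as pairs in the block fits. Their deviations correlated by 0.648, 0.374 and 0.618 in unspliced share, 0.448, 0.349 and 0.502 in lariat share, and 0.552, 0.387 and 0.488 in branch-to-3′ share in WT courses 1 to 3, and by 0.112 in both WT_30 courses.

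The members and lists were chosen with earlier results of these data known. Named are the single copies, the 5 called introns with the largest rise and the 5 with the largest fall without overlap of groups (3 and 3 for total reads), the 5 highest and 5 lowest in each share in WT, and the 8 furthest and 3 closest pairs in unspliced ratio and the 5 furthest in the other ratios. Others are named after their values were seen, among them the RPL33 pair and the introns that missed a threshold. A gene of the list is counted throughout but not reported here by name.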

Additional observations from a re-analysis of the deposited data

How the results depend on the processing

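Of 953 values of single introns and pairs over 95 results under other settings, 845 kept their direction and side of the threshold, 92 lost the call, 9 gained it and 7 changed sign. A pair of settings, leaving out the 390 and 540 s libraries of WT course 1 or the 300 s library of course 2, were chosen after seeing the data. The counts of called introns here and in the next paragraph are of the 50 alone. Given without the share of all introns, they compare settings, and not the 50 with other introns. With TMM applied to either read state, so that the typical intron lies near 0, 5 of 50 introns changed late in WT and 0 in WT_30 in unspliced share, 1 in lariat share late in WT, and 0 in lariat and 0 in branch-to-3′ share in prp2-1; RPL28 (0.57) and RPL32 (0.42) changed sign late in WT. For unspliced share in prp2-1, 35 introns were called without branch-to-3′ reads, 8 in the early window, 2 in the late window, 6 by limma on mean log2 ratios, and 0 to 16 with a WT course left out. Without branch-to-3′ reads RPL18B changed sign in prp2-1 (-0.48). Leaving out a WT course gave 0 to 5 lariat and 0 to 1 branch-to-3′ calls in prp2-1, and 0 to 2 branch-to-3′ and 0 to 4 total read calls late in WT. Minimums raised 5 times left 2 lariat calls in prp2-1 and no filter left 0. DESeq2 called 1 intron in lariat share and 6 in total reads late in WT, and 1 in branch-to-3′ share in prp2-1. Without the 390 and 540 s libraries 1 intron was called in lariat share and 3 in total reads late in WT. Library totals without TMM gave 1 call in total reads late in WT and 26 in prp2-1. In the WT_30 courses 19 pairs stood apart, where fewer courses than in WT make the rule of no overlap easier to meet. There RPL23 (-1.06), RPL26 (-1.29), RPL35 (1.14), RPL6 (-0.25) and RPL33 (-3.51) changed sign. Beyond what each setting removes by construction, the cause was not tested.

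With the course as a replicate block, late against early in WT, 8 introns were called in lariat share, 33 in branch-to-3′ share and 18 in total reads. WT_30 and WT courses share only a number, and with that block 38 introns were called in unspliced share and 35 in total reads. No block fit was made for the paralog pairs. Their differences were taken within each course, but the overlap rule and the permutation test took the values of the copies as unpaired. Leaving out a WT_30 course late against early was not run, since no residual degrees of freedom remain. The depth limits the lariat and branch-to-3′ shares most in prp2-1, where the median intron had 41.5 to 102.5 unspliced reads in a labelled library.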
